A study of Mus musculus with 15 samples.

Results

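The comparison described here is that of lungs from ovalbumin-challenged mice given ginsenoside Rg3 with lungs of saline-treated control mice, and it asks what remained different from normal lung under Rg3. It took 10 of the 15 RNA sequencing libraries of the series, 5 labelled OVA_Rg3 and 5 control, and 12137 of the 14766 genes of the deposited table, those with a value of 1 or more in at least 5 of the 15 libraries. All mice were wild type. Control mice received saline, with neither ovalbumin nor Rg3. OVA_Rg3 mice were induced with ovalbumin (OVA), an egg protein, by intraperitoneal injection followed by inhalation of an aerosol, and over that period received Rg3, a saponin of ginseng, at 20 mg/kg by gavage. The 5 OVA libraries, with the same induction and no Rg3, are given beside each result as a reference. All libraries belong to batch 1 and each is whole lung tissue, so that fewer cells of a type and less RNA per cell cannot be told apart.

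Allergic airway inflammation in the mouse draws eosinophils, alternatively activated macrophages and antibody-secreting cells into the lung and turns airway epithelium towards mucus production. The airway wall that receives them is lined by ciliated cells, which move mucus, and by club cells, which secrete secretoglobins and detoxify foreign compounds, and is wrapped in contractile smooth muscle. Around it lie the alveoli, made of type 1 and type 2 epithelial cells and a dense capillary endothelium.

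Values are FPKM (reads per kilobase of gene and M reads) divided by a scaling factor for each library, the median ratio over the 6365 genes at 1 or more in all libraries. Changes are on the scale of log2(scaled FPKM + 1), where those of low genes are understated, and a gene was called when its limma p adjusted over all 12137 genes by the Benjamini-Hochberg method was under 0.05. If the values are FPKM, the low values imply 0.830 to 9.01 M reads in control, 2.82 to 3.63 M in OVA and 0.216 to 3.87 M in OVA_Rg3 libraries. The shallowest is OVA_Rg3 1, where 3 reads on a gene of 1 kb make a deposited value of 13.9, and a gene listed at 0 there may have been missed. Control 2, with 0.830 M, is the shallowest control, and the same 3 reads make 3.61 there. Mitochondrially encoded transcripts took 18.9% to 29.3% of the summed values in control and 41.6% to 70.4% in OVA_Rg3. Control 2, OVA 4 and OVA_Rg3 1 held transcripts of other organs, with liver markers summing to 607, 526 and 2529 against 36.1 to 195 in the other libraries. Skeletal muscle markers summed to 266, 259 and 1242 against 4.61 to 51.5, and fat markers to 279, 250 and 1195 against 1.18 to 53.4. Counts of the lists that lead a paragraph are also given without these 3 libraries. Where a call below was ended by leaving out 1 library, by leaving out these 3, by the values as deposited, by quantile normalization or by a pseudocount of 0.1, this is stated at the end of the paragraph.

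Of the 12137 genes, 365 (3.01%) were called higher and 716 (5.9%) lower in OVA_Rg3 than in control, in all 1081 genes (8.91%), so that 66.2% of the calls were lower. The 5 OVA_Rg3 libraries lay wholly above the 5 controls for 435 genes (3.58%) and wholly below for 1030 (8.49%), and 817 genes were both called and separated in this way. The direction split depends on scaling. With the values as deposited 94 genes (0.774%) were higher and 1922 (15.8%) lower, or 95.3% lower, and with quantile normalization 517 (4.26%) were higher and 670 (5.52%) lower, or 56.4% lower. The median log2 change of all genes was -0.08 after scaling, -0.43 as deposited and 0.02 with quantile normalization. Among the 2921 genes with a mean of at least 10, 225 (7.7%) were higher and 224 (7.67%) lower. Without the 3 libraries 530 of 11800 genes (4.49%) were higher and 577 (4.89%) lower. Leaving out a single library lowered the total of 1081 calls to 224 without control 3, 324 without control 4, 444 without OVA_Rg3 5, 446 without control 1 and 577 without OVA_Rg3 2. A minimum log2 change of 1, tested as such, left none. Against OVA, no gene was called for OVA_Rg3 by limma, with 1045 genes (8.61%) at an unadjusted p under 0.05. Comparisons of OVA and of OVA_Rg3 with control share the control libraries, and their values are set side by side only.

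Gene lists of cell types and pathways were counted against these shares. Each count below is to be read beside 3.01% higher and 5.9% lower over all genes. A single call in a list is not read as a result about that list. Ciliated, club, smooth muscle, epithelial junction and foreign-compound metabolism genes held the most members called lower, and endothelial and mitochondrially encoded genes the most called higher. The plot of members called per list shows these 7 lists farthest beyond the shares over all genes.

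**Figure D1:**
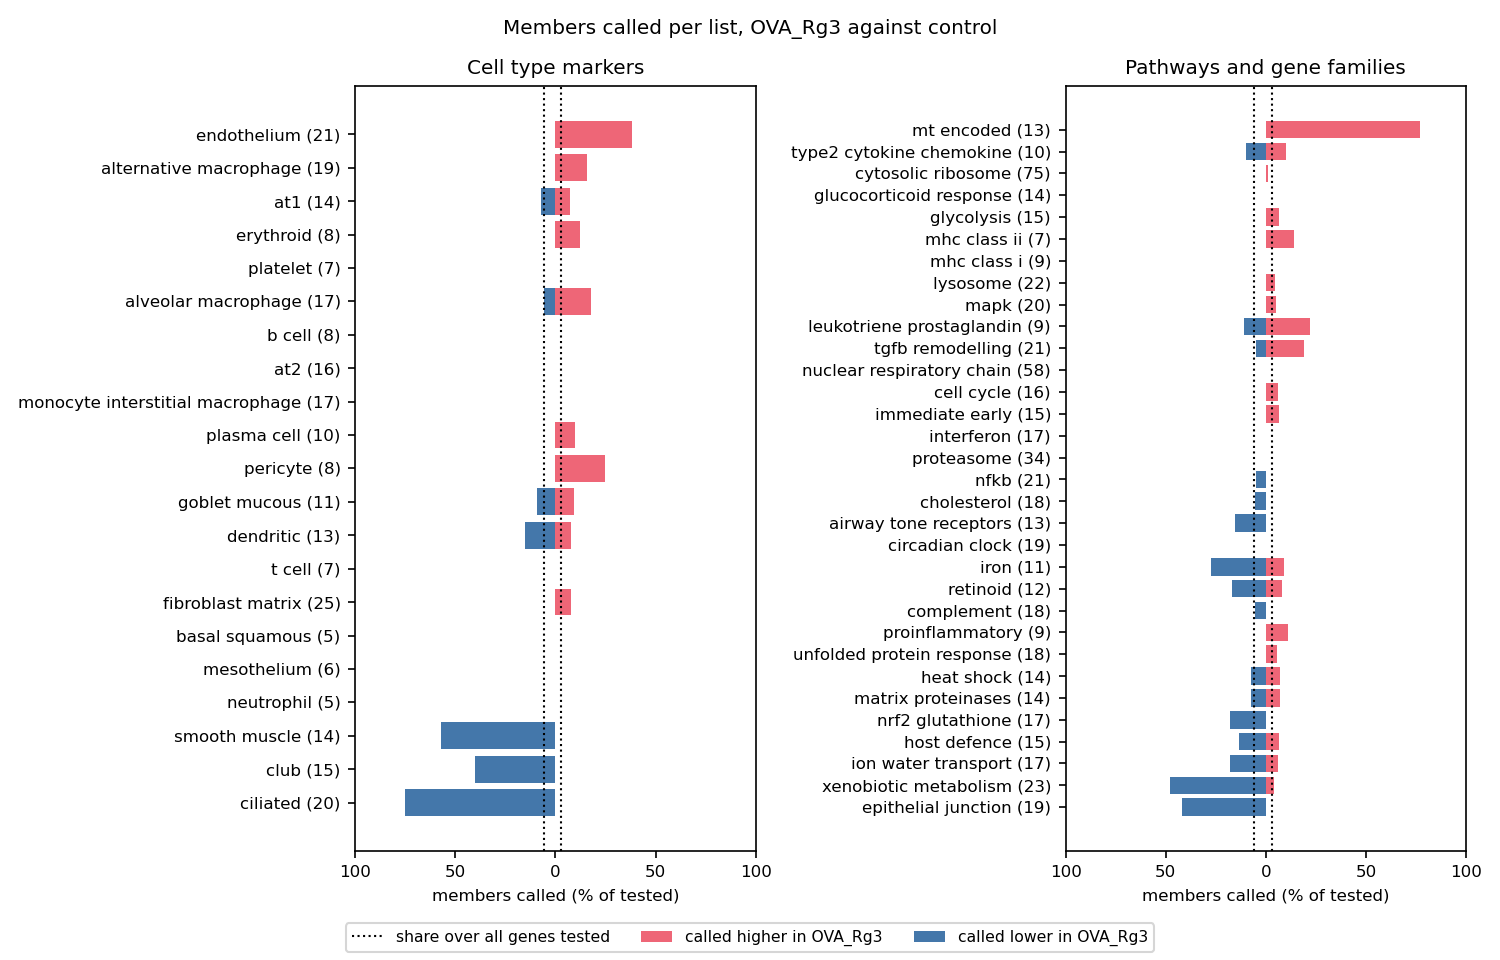
Share of the tested members of each list (number in brackets) called higher (bars to the right) or lower (bars to the left) in OVA_Rg3 than in control, in percent, for lists with at least 5 tested genes, ordered by median log2 change. Dotted lines mark the shares over all genes tested, 3.01% higher and 5.9% lower. Ciliated (15 of 20 lower) and mitochondrially encoded genes (10 of 13 higher) have the longest bars.

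Ciliated cell genes were low in OVA_Rg3 lungs. Of 20 tested genes 15 were called lower, against 5.9% of all genes, none was higher, and the median log2 change was -1.51 (-1.58 in OVA). The count was 10 of 20 without the 3 libraries, 14 without OVA_Rg3 1, 19 as deposited and 16 with quantile normalization. Foxj1, the transcription factor that sets up motile cilia, was 88.0, 204, 116, 97.9 and 56.4 in the 5 controls, 12.8, 48.1, 48.9, 20.3 and 23.01 in OVA and 14.8, 23.1, 53.1, 44.0 and 30.9 in OVA_Rg3. No OVA_Rg3 library reached the lowest control, and the log2 change was -1.74 ± 0.42 (SE, n = 5 per group, limma adjusted p = 0.0223). Ccdc113, a protein of the ciliary axoneme, was 50.7, 60.2, 56.9, 55.8 and 36.0 in control, 8.32, 27.6, 24.8, 8.72 and 9.67 in OVA and 14.3, 10.7, 24.5, 20.3 and 17.3 in OVA_Rg3. It too was separated from control and fell by 1.55 ± 0.32 (SE) on the log2 scale (limma adjusted p = 0.0134). Other called members were the dynein heavy chains Dnah5 (-1.50) and Dnah11 (-1.13), the radial spoke proteins Rsph1 (-1.74) and Rsph4a (-1.50), the cyclin-like Ccno of centriole multiplication (-1.33) and the cadherin Cdhr3 (-1.81). Whichever library was left out, the call of Ccdc113 was kept. With 1 library left out, the limma adjusted p passed 0.05 for Foxj1 (without control 3 or 4 or OVA_Rg3 2 or 5, up to 0.0616), Dnah5 (without control 1, 2, 3 or 4 or OVA_Rg3 1, 2 or 5, up to 0.0881), Dnah11 and Cdhr3 (without control 3, up to 0.0511 and 0.0567), Rsph1 (without control 1, 2, 3 or 4 or OVA_Rg3 2 or 5, up to 0.0776), Rsph4a (without control 3 or 4, up to 0.0594) and Ccno (without control 1, 3 or 4 or OVA_Rg3 2 or 5, up to 0.0860). Leaving out the 3 libraries ended the calls of Foxj1, Dnah5, Rsph1 and Cdhr3 and a pseudocount of 0.1 ended those of Dnah5, Dnah11 and Ccno.

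The other 5 were not called, and they included Rfx3, a transcription factor of cilium genes (-0.54, limma adjusted p = 0.121), and Tekt1, a tektin of the axoneme (-2.09, limma adjusted p = 0.0515). Dnaaf3 and Zmynd10, assembly factors of ciliary dynein arms that were in no list, were among the 10 largest falls. These were ranked among called and separated genes only, a choice that fixed their calls and their separation from control. Dnaaf3 (ENSMUSG00000055809.7, chromosome 7, 4522933 to 4532453) was 12.0, 5.57, 13.2, 12.8 and 6.85 in control, 1.61, 3.05, 2.71, 0.785 and 1.57 in OVA and 0, 0.911, 3.78, 0.900 and 2.06 in OVA_Rg3, a log2 change of -2.25 ± 0.37 (SE, limma adjusted p = 0.00488). Zmynd10 (ENSMUSG00000010044.12, chromosome 9, 107547298 to 107551319) was 23.6, 25.5, 28.1, 27.2 and 15.3 in control and 0, 5.38, 10.97, 8.41 and 3.54 in OVA_Rg3, a change of -2.28 ± 0.53 (SE, limma adjusted p = 0.0194). Both were below every control in all 5 OVA_Rg3 libraries and at 0 in the shallow OVA_Rg3 1. The call of Dnaaf3 held in all 15 fits with 1 library left out. The limma adjusted p passed 0.05 with 1 library fewer for Zmynd10 (without control 3 or 4, up to 0.0567). A pseudocount of 0.1 ended the call of Zmynd10.

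Because the ciliated genes were low together, their promoters were searched for the letters GTTGCC on both strands (GGCAAC on the printed strand), a half-site of the RFX factors that switch on cilium genes. The motif was chosen after the values had been seen, and 18 of the 23 listed genes had a promoter sequence, 250 bases before to 50 after the start, in RefSeq on GRCm38.p6. It was present in 13 of these 18 (72.2%), against 3821 of 27025 genes (14.1%), 0 of 12 club cell, 0 of 11 smooth muscle and 1 of 12 endothelial promoters (8.33%). In the other lists the share ran from 0 to 42.9%, and the highest were erythroid genes (3 of 7, 42.9%), MHC class II genes (2 of 5, 40.0%) and airway tone receptors (5 of 15, 33.3%). A match is a description of the letters and not evidence of binding. The 3 called genes of smallest p that hold it are shown 5′ to 3′ on the strand of the gene, with the match in capitals. They are Ccdc113 (chr8:95533850-95534149, plus strand, match from 6 bases before the start), Cdhr3 (chr12:33092826-33093125, minus strand, likewise from 6 bases before) and Spag6l, a central-pair protein of the axoneme (chr16:16829314-16829613, minus strand, match from 34 bases after the start). The call of Spag6l (without control 3 or 4, up to 0.0594), given with the limma adjusted p, rested on single libraries.
Ccdc113: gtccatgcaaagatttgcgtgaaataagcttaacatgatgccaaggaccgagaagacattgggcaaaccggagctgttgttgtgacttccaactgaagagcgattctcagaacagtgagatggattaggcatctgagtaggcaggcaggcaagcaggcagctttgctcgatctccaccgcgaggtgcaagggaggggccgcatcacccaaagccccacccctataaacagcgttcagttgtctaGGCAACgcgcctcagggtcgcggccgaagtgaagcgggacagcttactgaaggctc
Cdhr3: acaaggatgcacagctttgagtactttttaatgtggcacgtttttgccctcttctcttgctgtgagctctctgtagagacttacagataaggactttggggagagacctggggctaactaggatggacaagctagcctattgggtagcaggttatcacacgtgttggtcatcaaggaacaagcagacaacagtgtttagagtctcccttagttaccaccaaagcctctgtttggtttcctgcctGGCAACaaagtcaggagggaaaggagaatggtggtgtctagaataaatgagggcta
Spag6l: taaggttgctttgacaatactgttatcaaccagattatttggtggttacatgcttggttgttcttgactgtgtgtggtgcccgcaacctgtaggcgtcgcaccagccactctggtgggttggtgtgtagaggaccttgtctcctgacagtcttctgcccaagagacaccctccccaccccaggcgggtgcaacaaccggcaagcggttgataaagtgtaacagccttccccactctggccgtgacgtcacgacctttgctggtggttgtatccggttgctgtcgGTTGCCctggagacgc

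Club cell genes were also low. All 15 had a negative change, with a median of -1.39 (-1.80 in OVA), and 6 were called lower, while 6 were separated from control (8.49% of all genes were). The count was 4 without the 3 libraries, 11 as deposited and 9 with quantile normalization. Scgb1c1, a secretoglobin (ENSMUSG00000038801.6, chromosome 7, 140845547 to 140846769), had the largest fall of the comparison among separated genes. It was 75.6, 40.8, 53.0, 51.2 and 30.0 in control, 8.05, 7.90, 14.5, 1.06 and 2.45 in OVA and 0, 8.51, 8.56, 17.5 and 2.42 in OVA_Rg3, and fell by 3.11 ± 0.68 (SE) on the log2 scale (limma adjusted p = 0.0157). Sult1d1, a sulfotransferase (ENSMUSG00000029273.10, chromosome 5, 87554645 to 87569027), was 36.8, 46.6, 55.6, 54.9 and 14.4 in control and 4.13, 0.985, 6.69, 10.01 and 10.3 in OVA_Rg3, and its highest OVA_Rg3 library stayed below its lowest control. It fell by 2.63 (limma adjusted p = 0.0149). Hp, haptoglobin, which binds free haemoglobin, was 887, 1088, 1009, 918 and 752 in control and 336, 220.3, 388, 563 and 261 in OVA_Rg3. Its change was -1.46 ± 0.29 (SE, limma adjusted p = 0.0110), separated in all libraries. Cldn10, a claudin (-1.85), Gabrp, a subunit of the GABA-A receptor (-1.40), and Cyp2f2, the cytochrome P450 of club cells (-1.49), were the other calls. No single library ended the calls of Scgb1c1 and Hp. Not kept with 1 library fewer were Sult1d1 (without control 3, up to 0.0512), Cldn10 (without control 1, 3 or 4 or OVA_Rg3 2, up to 0.0611), Gabrp (without control 1, 3 or 4 or OVA_Rg3 2 or 5, up to 0.0829) and Cyp2f2 (without any of 10 libraries, up to 0.110), given with the limma adjusted p. The fit without the 3 libraries ended the calls of Gabrp and Cyp2f2 and a pseudocount of 0.1 ended those of Scgb1c1, Gabrp and Cyp2f2. Scgb1a1, the main secretoglobin of these cells, was 57663, 180027, 50033, 99567 and 40713 in control and 31915, 13782, 38889.5, 34178 and 29219 in OVA_Rg3. Its groups did not overlap, and with -1.39 it was not called (limma adjusted p = 0.0679).

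Genes of foreign-compound metabolism, many of them airway enzymes, had 11 of 23 members called lower and 1 higher, with a median of -0.86 (-1.54 in OVA). Without the 3 libraries 7 were lower and 1 higher. Pon1, paraoxonase 1 (ENSMUSG00000002588.12, chromosome 6, 5168090 to 5193946), was 51.8, 41.2, 42.7, 58.7 and 27.8 in control, 1.80, 3.56, 3.03, 3.62 and 5.98 in OVA and 12.1, 5.70, 6.32, 11.8 and 5.00 in OVA_Rg3. Every OVA_Rg3 library was under the lowest control, by log2 -2.35 ± 0.28 (SE, limma adjusted p = 0.00178). Aox3, an aldehyde oxidase (-1.50), Cyp1b1, a cytochrome P450 (-1.08), and Ces1d, a carboxylesterase (-1.13), were called and separated from control as well. Fmo1, a flavin-containing monooxygenase, went the other way. It was 16.3, 14.2, 13.2, 14.2 and 16.6 in control, 27.9, 33.2, 30.0, 42.6 and 55.9 in OVA and 26.0, 46.1, 47.9, 44.1 and 71.7 in OVA_Rg3, all above control, and rose by 1.54 ± 0.24 (SE, limma adjusted p = 0.00331). Whichever library was left out, the calls of Pon1, Aox3, Cyp1b1 and Fmo1 were kept. With 1 library left out, the limma adjusted p passed 0.05 for Ces1d (without control 3 or 4 or OVA_Rg3 5, up to 0.0592).

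Of 19 genes of epithelial junctions and keratins 8 were called lower and none higher, with a median of -0.97 (-1.05 in OVA) and 4 calls without the 3 libraries. Krt8, a keratin of simple epithelium, was 135, 169, 126, 126 and 120.1 in control, 37.4, 54.4, 58.3, 75.8 and 47.3 in OVA and 43.5, 51.8, 71.3, 82.2 and 57.3 in OVA_Rg3. The groups did not overlap, and it fell by 1.16 ± 0.20 (SE) on the log2 scale (limma adjusted p = 0.00644). Cgn, cingulin of tight junctions, fell by 0.97 and Epcam, an adhesion protein of epithelium, by 1.35. Cdh1, E-cadherin, was 82.0 ± 15.03 in control and 36.6 ± 11.7 in OVA_Rg3 (SD, n = 5 each) and fell by 1.18 (limma adjusted p = 0.0468). Cldn18, a claudin of alveolar epithelium, had 0.53 (limma adjusted p = 0.511). The calls of Krt8 and Cgn held in all 15 fits with 1 library left out. The limma adjusted p passed 0.05 with 1 library fewer for Epcam (without control 3 or 4 or OVA_Rg3 5, up to 0.0606) and Cdh1 (without any of 11 libraries, up to 0.101). Removing the 3 libraries ended the calls of Epcam and Cdh1 and a pseudocount of 0.1 ended that of Cdh1.

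Alveolar epithelium gave few calls. Of 16 type 2 genes none passed in limma, against 8.91% of all genes. An unadjusted p under 0.05 was found for 1 of the 16, and the share of all genes at that p is not given here. Their median was 0.38, which was -0.06 as deposited. Sftpc, surfactant protein C, had 0.66 (limma adjusted p = 0.340) and Sftpb, surfactant protein B, -0.67 (limma adjusted p = 0.233). Of 14 type 1 genes 1 was higher and 1 lower, and 3 and 1 without the 3 libraries. Emp2, a membrane protein, rose by 0.87 and Aqp5, a water channel, fell by 0.94 (limma adjusted p = 0.0256 and 0.0266). Aqp5 was 86.8, 51.0, 72.6, 71.9 and 91.2 in control, 19.2, 21.8, 28.9, 19.5 and 22.0 in OVA and 22.1, 54.8, 43.5, 50.9 and 28.6 in OVA_Rg3, with OVA_Rg3 2 inside the control range. Aqp4, a water channel of the list of ion and water transport, was 8.23, 7.84, 13.0, 9.64 and 5.86 in control and 5.01, 0.572, 2.02, 3.11 and 1.24 in OVA_Rg3. It was separated and fell by 1.66 ± 0.32 (SE, limma adjusted p = 0.0101). No single library ended the call of Aqp4. Single libraries decided the calls of Emp2 (without control 3 or 4 or OVA_Rg3 2, up to 0.0779) and Aqp5 (without control 1, 3, 4 or 5 or OVA_Rg3 5, up to 0.0710), given with the limma adjusted p. The values as deposited ended the call of Emp2.

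**Figure D2:**
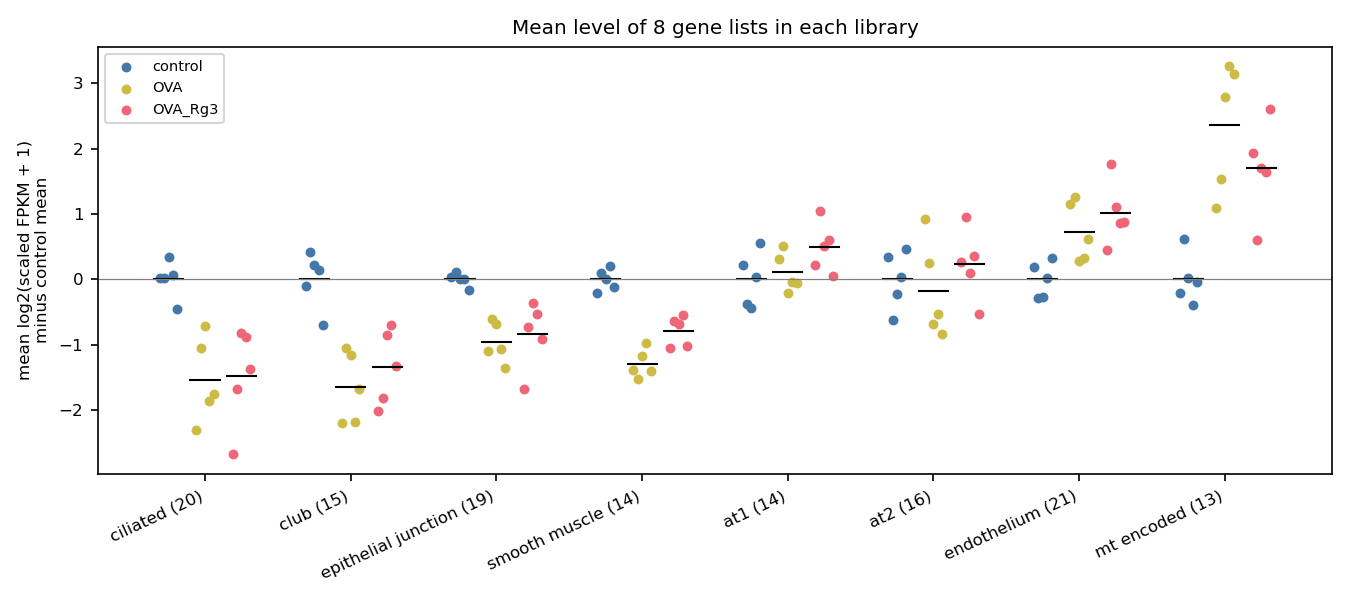
Mean log2(scaled FPKM + 1) of the tested members of 8 lists (number in brackets) in each library, relative to the mean of the 5 controls. Points are libraries and black bars group means. In the OVA_Rg3 libraries the ciliated mean lay between -2.68 and -0.81 and the smooth muscle mean between -1.06 and -0.55, while the endothelial mean lay between 0.45 and 1.77.

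Contractile smooth muscle genes were lower in OVA_Rg3 than in control lungs. Of 14 tested genes 8 were called lower, none was higher, and 7 were separated below control (8.49% of all genes were). The median log2 change was -0.82 (-1.10 in OVA), and the count was 8 as deposited, 7 with quantile normalization and 7 of 13 without the 3 libraries. Myh11, the myosin heavy chain of smooth muscle, was 33.2, 25.6, 39.1, 34.8 and 23.8 in control, 6.83, 6.63, 8.30, 7.32 and 3.56 in OVA and 10.5, 15.3, 14.1, 15.4 and 6.63 in OVA_Rg3. No OVA_Rg3 library reached the controls, and it fell by 1.30 ± 0.24 (SE) on the log2 scale (limma adjusted p = 0.00832). Tagln, transgelin, was 152, 168, 153, 166 and 139 in control and 59.0, 80.9, 92.1, 87.2 and 79.2 in OVA_Rg3, and fell by 0.97 (limma adjusted p = 0.00870). Cnn1, calponin (ENSMUSG00000001349.5, chromosome 9, 22099216 to 22109630), was 42.1, 34.7, 45.1, 45.6 and 34.3 in control and 0, 7.81, 8.23, 21.9 and 6.47 in OVA_Rg3, with the shallow library at 0. It fell by 2.61 ± 0.61 (SE, limma adjusted p = 0.0197). The intermediate filament protein Des fell by 1.30, the gamma smooth muscle actin Actg2 by 1.28, Tpm2, a tropomyosin, by 1.04 and Lmod1, leiomodin, by 0.67. Mylk, myosin light chain kinase, was 18.2 ± 1.92 in control and 15.9 ± 3.46 in OVA_Rg3 (SD, n = 5 each) and was not called. Whichever library was left out, the calls of Myh11, Tagln and Des were kept. Not kept with 1 library fewer were Cnn1 (without control 3 or 4, up to 0.0567), Actg2 (without control 1, 3 or 4 or OVA_Rg3 2 or 5, up to 0.0727), Tpm2 (without control 2, 3 or 4 or OVA_Rg3 2 or 5, up to 0.0924) and Lmod1 (without any of 13 libraries, up to 0.116), given with the limma adjusted p. Leaving out the 3 libraries and quantile normalization each ended the call of Lmod1 and a pseudocount of 0.1 ended those of Cnn1, Tpm2 and Lmod1.

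Acta2, the actin of smooth muscle (ENSMUSG00000035783.8, chromosome 19, 34241090 to 34255336), lay between the other groups. It was 149, 122, 147, 178 and 135 in control, 22.3, 17.9, 32.2, 40.2 and 33.1 in OVA and 60.2, 81.2, 78.1, 72.3 and 46.1 in OVA_Rg3. All OVA_Rg3 libraries were below every control and above every OVA library. Against control it fell by 1.12 ± 0.22 (SE, limma adjusted p = 0.0101). Against OVA the change was 1.21, with limma adjusted p = 0.122, which was not called. Cckar, the cholecystokinin A receptor of the list of airway tone receptors, was 47.7, 41.0, 49.3, 49.8 and 34.9 in control, 4.31, 13.8, 1.05, 5.46 and 9.17 in OVA and 4.05, 10.5, 26.0, 16.6 and 13.5 in OVA_Rg3. It fell by 1.77 (limma adjusted p = 0.0306). The call of Acta2 held in all 15 fits with 1 library left out. With 1 library left out, the limma adjusted p passed 0.05 for Cckar (without control 1, 2, 3 or 4 or OVA_Rg3 2 or 5, up to 0.0774). The fit without the 3 libraries and a pseudocount of 0.1 each ended the call of Cckar.

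Endothelial genes were higher in OVA_Rg3 lungs. Of 21 tested genes 20 had a positive change and 8 were called higher, against 3.01% of all genes. The median was 1.07 (0.73 in OVA). The count was 1 as deposited, where the median was 0.74, 11 with quantile normalization, 6 without the 3 libraries and 13 without OVA_Rg3 1. Prx, periaxin, known from nerve sheath and lung endothelium (ENSMUSG00000053198.13, chromosome 7, 27499324 to 27520214), was 4.87, 7.38, 3.51, 5.68 and 5.05 in control, 31.9, 32.5, 10.7, 20.0 and 18.04 in OVA and 12.8, 26.0, 23.7, 26.3 and 24.7 in OVA_Rg3. Every OVA_Rg3 library exceeded every control, the shallow one least, and it rose by 1.90 ± 0.28 (SE, limma adjusted p = 0.00285). Plvap, the protein of endothelial fenestral diaphragms (ENSMUSG00000034845.6, chromosome 8, 71497765 to 71511752), which was in no list, was 30.5, 11.7, 13.3, 15.9 and 25.9 in control, 54.4, 33.7, 23.5, 39.1 and 43.3 in OVA and 46.1, 137, 69.2, 71.7 and 48.3 in OVA_Rg3. Plvap rose by 1.86 ± 0.32 (SE, limma adjusted p = 0.00614). It was named as 1 of the 10 largest rises among called and separated genes, a choice that fixed its call and its separation from control. Cdh5, VE-cadherin, rose by 1.35, Eng, endoglin, by 1.22, Pecam1, a junction protein, by 0.97, and Tek, the angiopoietin receptor, by 1.28. Cldn5, a claudin of endothelium, had 1.07 (limma adjusted p = 0.129). No single library ended the calls of Prx and Plvap. The limma adjusted p passed 0.05 with 1 library fewer for Cdh5 (without control 2, 3 or 4 or OVA_Rg3 2, up to 0.0717), Eng (without control 1, 3 or 4 or OVA_Rg3 2, up to 0.0619), Pecam1 (without control 1, 2, 3 or 4 or OVA_Rg3 2, 3 or 5, up to 0.0980) and Tek (without any of 8 libraries, up to 0.115). Removing the 3 libraries ended the calls of Cdh5, Pecam1 and Tek, the values as deposited ended those of Cdh5, Eng, Pecam1 and Tek and a pseudocount of 0.1 ended those of Pecam1 and Tek. Epithelial and smooth muscle levels moved down in the same libraries, and their part in the endothelial values was not tested.

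**Figure D3:**
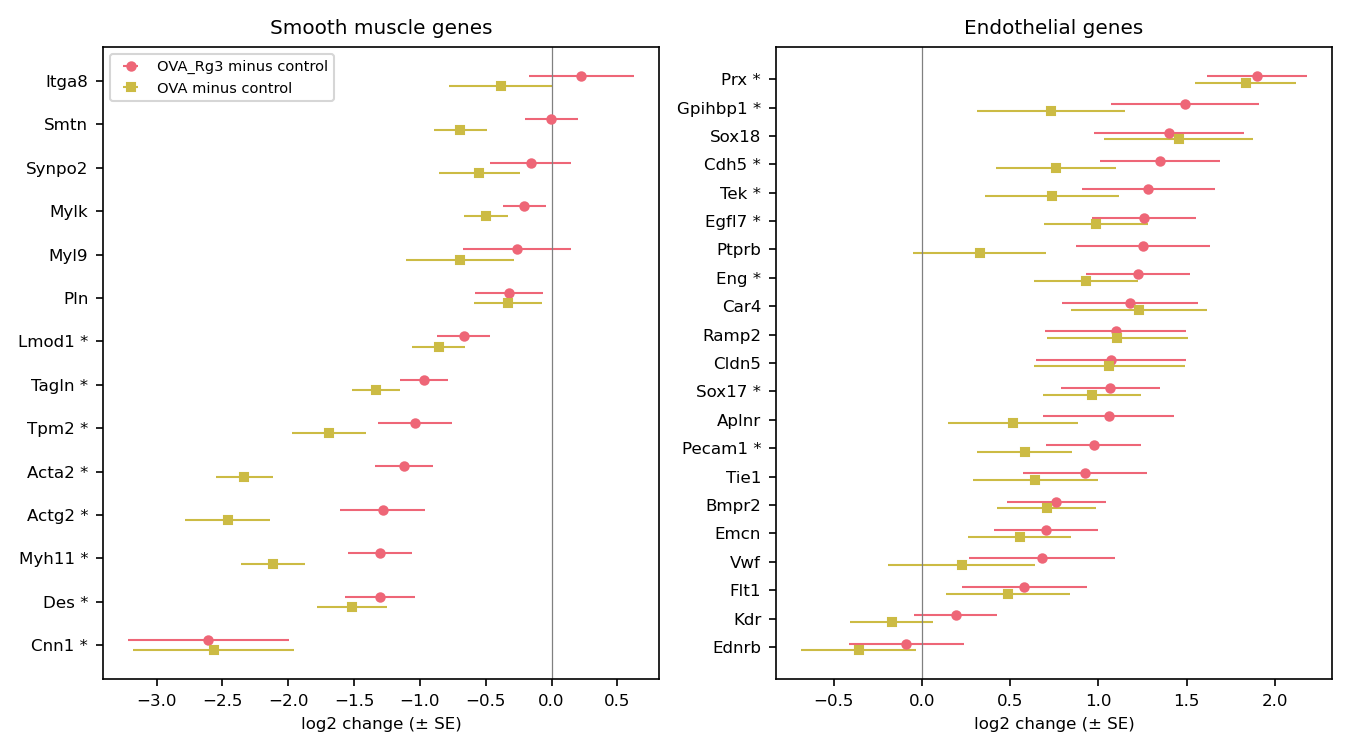
Log2 change from control with its SE for the 14 smooth muscle and 21 endothelial genes tested, in OVA_Rg3 (circles) and OVA (squares), which share the 5 control libraries. An asterisk marks genes called in OVA_Rg3 against control, 8 lower in smooth muscle and 8 higher in endothelium.

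Signalling genes of the transforming growth factor beta and bone morphogenetic protein family were split, with 4 of 21 called higher and 1 lower. The shares over all genes were 3.01% and 5.9%. Without the 3 libraries 6 were higher and 2 lower. Acvrl1, a receptor of the family found on endothelium, was 4.79, 9.66, 13.1, 5.04 and 4.76 in control, 9.85, 6.83, 5.10, 6.16 and 7.84 in OVA and 19.4, 64.3, 36.1, 10.4 and 26.8 in OVA_Rg3. It rose by 1.80 ± 0.39 against control (SE, limma adjusted p = 0.0149), with OVA_Rg3 4 inside the control range, while OVA had 0.02. Against OVA the change was 1.78 (limma adjusted p = 0.234), not called. Smad6, an inhibitory Smad, rose by 1.13, Tgfb1, a ligand, by 0.92 and Id3, a target gene, by 1.00, while Bmp4, a ligand, fell by 1.10. Mapk14, the p38 alpha kinase, was 2.47, 3.61, 0.407, 1.77 and 0.438 in control, 0.669, 0.655, 5.30, 1.97 and 1.18 in OVA and 8.39, 5.37, 6.03, 5.27 and 7.79 in OVA_Rg3. It was above every control and rose by 1.60 ± 0.38 (SE, limma adjusted p = 0.0215). Its change against OVA was 1.54 (limma adjusted p = 0.315). It was the single call among 20 kinase genes of its pathway. Jun, an immediate early transcription factor, was 17.2, 18.2, 14.2, 15.7 and 21.5 in control, 41.9, 38.6, 29.4, 35.9 and 37.1 in OVA and 33.4, 44.6, 36.1, 37.5 and 45.1 in OVA_Rg3. It was separated, rose by 1.14 ± 0.15 (SE, limma adjusted p = 0.00178), and was the single call among 15 immediate early genes. Of 21 NF-kappaB genes 1 was called, Chuk, the IKK alpha kinase, which fell by 0.71, and without the 3 libraries 1 of 20 was higher and none lower. Whichever library was left out, the calls of Acvrl1, Smad6 and Jun were kept. Single libraries decided the calls of Tgfb1 and Mapk14 (without control 3 or 4 or OVA_Rg3 5, up to 0.0603 and 0.0660), Id3 (without control 2, 3 or 4 or OVA_Rg3 2 or 5, up to 0.0784), Bmp4 (without control 1, 3 or 4 or OVA_Rg3 5, up to 0.0603) and Chuk (without control 1, 2, 3 or 4 or OVA_Rg3 2 or 5, up to 0.0775), given with the limma adjusted p. Leaving out the 3 libraries ended the call of Chuk and the values as deposited ended those of Smad6, Tgfb1, Id3 and Jun.

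Mesenchymal cells other than smooth muscle gave 2 calls among 25 fibroblast and matrix genes, both higher. As deposited none was higher and 5 were lower, and without the 3 libraries 3 were higher and 3 lower. Tcf21, a transcription factor of lung fibroblasts, was 9.88, 7.53, 9.07, 12.4 and 8.72 in control, 16.0, 17.1, 11.04, 16.7 and 26.8 in OVA and 13.6, 32.8, 25.7, 23.1 and 26.0 in OVA_Rg3, and rose by 1.23 ± 0.24 (SE, limma adjusted p = 0.0101) without overlap. Inmt, an indole N-methyltransferase, rose by 1.21. Collagen chains were not called, with Col1a1 at -0.77 and Col3a1 at -0.37. Of 8 pericyte genes Higd1b rose by 1.08 and Rgs5, a regulator of G protein signalling, by 1.75. Rgs5 was 0.728, 4.19, 0.869, 0.614 and 0.707 in control and 24.4, 5.84, 4.29, 3.96 and 3.38 in OVA_Rg3, with the highest control value in control 2, inside the OVA_Rg3 range, and the highest OVA_Rg3 value in OVA_Rg3 1. The call of Tcf21 held in all 15 fits with 1 library left out. Not kept with 1 library fewer were Inmt (without control 1, 3 or 4 or OVA_Rg3 2 or 5, up to 0.0727), Higd1b (without control 3, up to 0.0528) and Rgs5 (without control 1, 3, 4 or 5 or OVA_Rg3 2, up to 0.0860), given with the limma adjusted p. The values as deposited ended the calls of Tcf21, Inmt and Higd1b.

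Several genes of allergic inflammation were higher in OVA_Rg3 than in control lungs. Chil3, a chitinase-like protein of macrophages (ENSMUSG00000040809.10, chromosome 3, 106147554 to 106167564), was 24.1, 39.1, 13.7, 15.1 and 28.0 in control, 1377, 743, 330.2, 193 and 246 in OVA and 394, 947, 522, 212 and 194 in OVA_Rg3. It was the largest rise of the comparison, by log2 4.03 ± 0.53 (SE, limma adjusted p = 0.00178) with no overlap with control. Reads may be split between Chil3 and its near-identical relative Chil4, which had 2.24 and was not called (limma adjusted p = 0.126). Rnase2a, an eosinophil-associated ribonuclease of a multigene family (ENSMUSG00000047222.7, chromosome 14, 51255262 to 51256112), was 0.110, 3.08, 0.463, 0.133 and 0.296 in control, 12.3, 17.5, 33.9, 7.24 and 18.9 in OVA and 14.5, 44.2, 29.5, 7.64 and 10.4 in OVA_Rg3. It rose by 3.55 ± 0.49 (SE, limma adjusted p = 0.00219), with control 2, the shallowest control, the only 1 above 1. Of 14 listed eosinophil genes only 3 could be tested. Rnase2a was the single call among them, with 2 changes positive and 1 negative. Clca1, a secreted protein of mucous cells (ENSMUSG00000028255.6, chromosome 3, 145003817 to 145032776), was 5.98, 15.7, 36.2, 0.387 and 1.33 in control, 23.1, 171, 191, 17.7 and 202 in OVA and 42.9, 40.8, 284, 53.2 and 179 in OVA_Rg3. The groups did not overlap, and it rose by 3.69 ± 0.94 (SE, limma adjusted p = 0.0266). No single library ended the calls of Chil3 and Rnase2a. With 1 library left out, the limma adjusted p passed 0.05 for Clca1 (without control 1, 4 or 5 or OVA_Rg3 3 or 5, up to 0.0766).

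Alternatively activated macrophage genes had 3 of 19 called higher and none lower, with a median of 0.81 (1.38 in OVA), and 4 higher without the 3 libraries. Besides Chil3 these were Arg1 and Mmp12. Arg1, arginase 1, was 0.294, 6.22, 0.230, 0.340 and 0.592 in control, 55.9, 16.0, 28.6, 14.5 and 18.04 in OVA and 34.0, 14.9, 12.0, 2.54 and 11.4 in OVA_Rg3. It rose by 2.73 ± 0.59 (SE, limma adjusted p = 0.0149), and control 2, which held liver transcripts, lay above OVA_Rg3 4. OVA_Rg3 1, with the highest sum of liver markers, had the highest Arg1 of its group, and OVA 4, which held liver transcripts too, the lowest of OVA. The call was kept without the 3 libraries, and the part of liver transcripts in Arg1 was not tested. Mmp12, macrophage metalloelastase, was 0.488, 3.14, 0.379, 0.299 and 0.590 in control, 206, 76.5, 26.4, 22.0 and 17.7 in OVA and 8.95, 37.9, 20.1, 2.29 and 7.02 in OVA_Rg3, and rose by 2.72 (limma adjusted p = 0.0258), with OVA_Rg3 4 below control 2. Retnla, a resistin-like protein, had 1.43 and Spp1, osteopontin, 1.15, neither called. Among 17 alveolar macrophage genes Fabp5, a fatty acid binding protein, rose by 1.22, Atp6v0d2, a proton pump subunit, by 1.19, and Plet1 fell by 1.16. Atp6v0d2 was 8.45, 3.41, 5.23, 6.11 and 11.1 in control, 112, 42.8, 52.5, 39.9 and 69.7 in OVA and 10.2, 25.7, 16.1, 12.8 and 18.8 in OVA_Rg3. The OVA_Rg3 libraries lay below all OVA libraries and overlapped control, with a change of -1.82 against OVA (limma adjusted p = 0.122), not called. The limma adjusted p passed 0.05 with 1 library fewer for Arg1 (without control 3, up to 0.0512), Mmp12 (without control 1, 3 or 4 or OVA_Rg3 2, up to 0.0709), Fabp5 (without control 3 or 4, up to 0.0617), Atp6v0d2 (without control 1, 2, 3 or 4 or OVA_Rg3 2 or 5, up to 0.0878) and Plet1 (without control 1, 3, 4 or 5 or OVA_Rg3 1, 2 or 5, up to 0.0978). The fit without the 3 libraries ended the call of Fabp5, the values as deposited ended those of Fabp5 and Atp6v0d2 and a pseudocount of 0.1 ended that of Plet1.

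Of 10 tested type 2 cytokine, receptor and chemokine genes 1 was higher and 1 lower, also without the 3 libraries. Ccl11, the eosinophil chemokine eotaxin, was 3.01, 4.31, 4.61, 7.49 and 4.78 in control, 8.25, 11.5, 16.0, 12.5 and 13.4 in OVA and 9.20, 29.5, 20.5, 9.88 and 13.5 in OVA_Rg3. It was separated from control and rose by 1.50 ± 0.29 (SE, limma adjusted p = 0.0101). Il13ra1, a receptor chain for interleukins 4 and 13, was 18.4, 11.8, 21.3, 17.4 and 12.8 in control, 5.32, 8.32, 8.32, 3.00 and 3.88 in OVA and 2.74, 6.55, 8.21, 6.45 and 5.88 in OVA_Rg3, and fell by 1.34 ± 0.28 (SE, limma adjusted p = 0.0135) with no overlap. Ccl8, a monocyte chemokine, had 1.35 (limma adjusted p = 0.0607) and Il33, an alarmin, 0.90 (limma adjusted p = 0.0619). Jchain, the joining chain of secreted antibodies, was 2.70, 46.7, 255, 8.16 and 19.5 in control, 1139, 842, 1076, 319 and 141 in OVA and 246, 297, 233, 132 and 353 in OVA_Rg3. It rose by 3.31 ± 0.89 (SE, limma adjusted p = 0.0322), with control 3 inside the OVA_Rg3 range, and was the single call among 10 plasma cell genes. Of 11 mucous cell genes Clca1 was higher and Muc4, a membrane mucin, fell by 1.16, while Muc5b, a secreted mucin, had -0.34 (limma adjusted p = 0.704). Whichever library was left out, the calls of Ccl11, Il13ra1 and Muc4 were kept. The call of Jchain (without control 1, 4 or 5 or OVA_Rg3 2 or 5, up to 0.0860), given with the limma adjusted p, rested on single libraries. Removing the 3 libraries ended the call of Jchain and a pseudocount of 0.1 ended those of Jchain and Muc4. Muc5ac, Prg2 and Il1rl1 were too low to be tested, and Il4, Il5, Il13 and Epx were not analysed here. No T cell (7 tested), B cell (8), neutrophil (5), monocyte and interstitial macrophage (17), interferon-stimulated (17) or glucocorticoid-responsive gene (14) was called by limma in OVA_Rg3 against control. Over all genes the share called was 8.91%, at which no call in lists of 5 to 17 genes says little. At an unadjusted p under 0.05 these lists had 0, 2, 0, 6, 1 and 1 genes in that order. The share of all genes at that p is not given here.

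**Figure D4:**
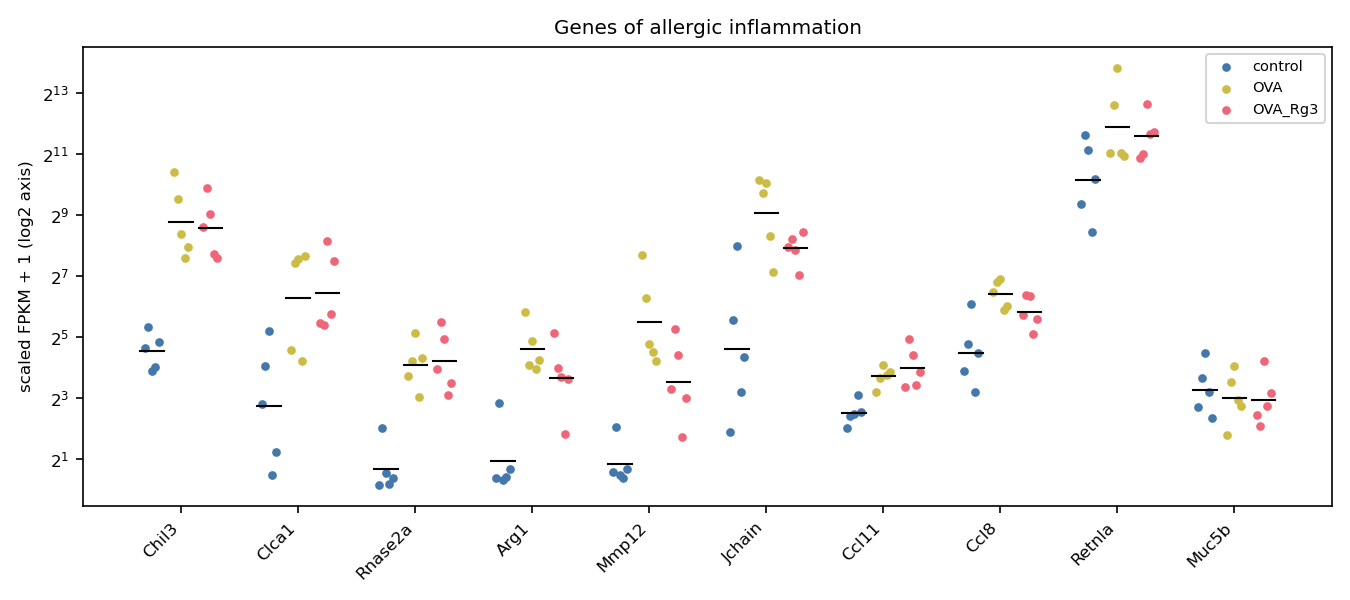
Scaled FPKM + 1 on a log2 axis for 10 genes of allergic inflammation in the 15 libraries. Points are libraries and black bars the mean on the log scale. Chil3, Clca1, Rnase2a and Ccl11 are higher in all 5 OVA_Rg3 libraries than in any control, while Muc5b overlaps in all groups.

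Mitochondrially encoded genes, subunits of the respiratory chain and its ATP synthase, were high, with 10 of 13 called and a median of 1.74 (2.41 in OVA). The count was 12 as deposited, 6 without the 3 libraries and 1 with quantile normalization (median 0.27), a method that forces 1 common distribution on the libraries. mt-Co1, cytochrome c oxidase subunit 1, was 8931, 14173, 10480.1, 7248 and 9300.4 in control, 22330.1, 30479.7, 67751, 101536 and 103340.0 in OVA and 34499, 17966, 37064, 34359.6 and 65910.5 in OVA_Rg3. It was separated from control and rose by 1.84 ± 0.44 (SE, limma adjusted p = 0.0220). mt-Nd5 and mt-Nd4l, subunits of complex I, rose by 1.82 and 1.74. None of the 58 nuclear genes of the same chain was called by limma, against 8.91% of all genes, and their median was 0.04. At an unadjusted p under 0.05 there was 1 of the 58, and the share of all genes at that p is not given here. All 75 cytosolic ribosomal protein genes had a positive change, and the share of all genes with a positive change is not given here. Their median was 0.44 (0.81 in OVA), and it was -0.01 as deposited and 0.28 with quantile normalization. Of the 75, 1 was called higher, with 0 as deposited, 5 with quantile normalization and 11 without the 3 libraries. Not kept with 1 library fewer were mt-Co1 and mt-Nd4l (without control 1, 3 or 4 or OVA_Rg3 5, up to 0.0634 and 0.0609) and mt-Nd5 (without control 3 or 4 or OVA_Rg3 5, up to 0.0558), given with the limma adjusted p. Quantile normalization ended the calls of mt-Co1 and mt-Nd5. Whether RNA quality or cell content differed between the groups was not tested.

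Smaller lists gave a few calls each, beside 3.01% higher and 5.9% lower over all genes. A single call in such a list tells of that gene and not of the list. Of 17 antioxidant genes of the Nrf2 and glutathione pathways 3 were called, all lower, among them Gss, glutathione synthetase (-0.83), and Gsta1, a glutathione transferase that was 2.19, 1.60, 2.23, 3.65 and 1.04 in control and at 0 in 4 of 5 OVA_Rg3 libraries. Of 11 iron genes 3 were lower and 1 higher, and 2 and 2 without the 3 libraries. The lower ones were Cp, ceruloplasmin (-1.57), Slc11a2, an iron importer (-1.37), and Trf, transferrin (-0.95), and the higher one Fth1, the ferritin heavy chain (0.77). Of 12 retinoid genes 1 was higher and 2 lower, also without the 3 libraries. Cyp26b1, which degrades retinoic acid, was 0.394, 0.803, 0.289, 0.181 and 1.26 in control, 3.95, 2.30, 2.06, 2.27 and 0.807 in OVA and 5.26, 4.61, 2.19, 2.71 and 5.87 in OVA_Rg3, rose by 1.67 ± 0.28 (SE, limma adjusted p = 0.00548) and did not overlap control. Rdh10, which makes retinal, fell by 0.97 and Aldh1a7, an aldehyde dehydrogenase, by 1.25. Of 9 leukotriene and prostaglandin genes 2 were higher and 1 lower, and 1 and 2 without the 3 libraries. Hpgd, which inactivates prostaglandins, rose by 1.28 and Ltc4s, leukotriene C4 synthase, by 1.33, and Pla2g4a, the phospholipase that releases arachidonic acid, fell by 0.80. Sqle, squalene epoxidase of cholesterol synthesis, was 10.3, 8.16, 7.72, 7.48 and 8.35 in control and 3.01, 3.14, 3.97, 3.59 and 2.91 in OVA_Rg3, fell by 1.12 ± 0.17 (SE, limma adjusted p = 0.00330), and was the single call among 18 cholesterol genes. Of 13 dendritic cell genes 1 was higher and 2 lower, with a median of 0.17, and 1 and 1 of 12 without the 3 libraries. Fscn1, fascin, of migrating dendritic cells, was 4.26, 4.88, 1.89, 2.20 and 0.615 in control and 8.35, 7.68, 6.12, 8.27 and 8.52 in OVA_Rg3, all above control, and rose by 1.36 ± 0.31 (SE, limma adjusted p = 0.0181). Xcr1, a chemokine receptor of conventional dendritic cells, fell by 0.66. Siglech, of plasmacytoid dendritic cells, was 0.856, 1.55, 1.31, 0.910 and 0.948 in control and 0, 0.204, 0.307, 0.336 and 0.162 in OVA_Rg3, below every control, and fell by 0.81, and it did not pass the filter without the 3 libraries. Cd74, the invariant chain of MHC class II, rose by 1.22 as the single call among 7 class II genes. None of 19 circadian clock genes was called by limma, against 8.91% of all genes. At an unadjusted p under 0.05 there were 5 of the 19, and the share of all genes at that p is not given here. The calls of Gss, Gsta1, Cp, Cyp26b1 and Sqle held in all 15 fits with 1 library left out. Siglech passed the filter only through the 5 controls, where it was high. Fits without a control did not test it. It kept its call in the other 10 of these 15 fits, which is no support for the fall. Its OVA_Rg3 values lay under what 3 reads on a gene of 1 kb make in those libraries, 0.775 or more as deposited. The OVA_Rg3 values of Gsta1 lay under that level too. Its only value above 0 there was 1.40 scaled in OVA_Rg3 5, where the scaling factor was 0.769 and the level 1.27 as deposited. Its control 2 value was also under the level of that library, 3.61, so that the kept calls of Gsta1 say little about the size of its fall. With 1 library left out, the limma adjusted p passed 0.05 for Slc11a2 and Pla2g4a (without control 1, 3 or 4 or OVA_Rg3 2 or 5, up to 0.0634 and 0.0995), Trf (without any of 14 libraries, up to 0.123), Fth1 (without any of 9 libraries, up to 0.112), Rdh10 (without control 2, 3 or 4 or OVA_Rg3 2 or 5, up to 0.0704), Aldh1a7 (without any of 8 libraries, up to 0.104), Hpgd (without control 1 or 3 or OVA_Rg3 5, up to 0.0567), Ltc4s (without control 2, 3 or 4 or OVA_Rg3 1, 2, 4 or 5, up to 0.0862), Fscn1 (without control 3, up to 0.0562), Xcr1 (without control 3, 4 or 5 or OVA_Rg3 5, up to 0.0667) and Cd74 (without any of 11 libraries, up to 0.120). Leaving out the 3 libraries ended the calls of Slc11a2, Rdh10, Aldh1a7, Ltc4s, Xcr1 and Cd74, the values as deposited ended those of Fth1, Hpgd, Ltc4s and Cd74, quantile normalization ended those of Fth1, Xcr1 and Cd74 and a pseudocount of 0.1 ended those of Trf, Fth1, Aldh1a7, Ltc4s, Pla2g4a, Xcr1 and Cd74.

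Further lists also gave few calls, mostly 1 or 2 each, beside 3.01% higher and 5.9% lower over all genes. They are given for the genes and not as results about the lists. Stmn1, stathmin, a microtubule regulator of dividing cells, was 14.1, 22.4, 10.9, 12.1 and 12.3 in control, 19.6, 30.6, 23.8, 52.9 and 47.3 in OVA and 42.2, 34.1, 26.7, 45.5 and 53.2 in OVA_Rg3. It lay above every control, rose by 1.44 ± 0.28 (SE, limma adjusted p = 0.0101), and was the single call among 16 cell cycle genes. Of 15 host defence genes Slpi, a secreted protease inhibitor, rose by 1.81 with control 3 inside the OVA_Rg3 range, and 2 fell, among them Cxcl17, a mucosal chemokine, by 1.44. Without the 3 libraries none was higher and 2 were lower. Cd55, an inhibitor of complement, was 21.5, 16.1, 29.3, 25.2 and 19.6 in control and 7.16, 8.70, 10.9, 12.8 and 9.31 in OVA_Rg3, below every control, and fell by 1.11 ± 0.25 (SE, limma adjusted p = 0.0169). Hdc, histidine decarboxylase, which makes histamine, was 15.8, 9.83, 13.4, 12.2 and 10.8 in control and 1.29, 4.98, 7.80, 8.14 and 5.28 in OVA_Rg3. It was also separated, fell by 1.18, and was the single call among 4 mast cell and basophil genes. Mmp15, a membrane-type metalloproteinase, fell by 0.94 without overlap. Pfkfb3, a regulator of glycolysis, was 0.168, 3.14, 0.128, 0.128 and 0.0864 in control and 12.5, 6.399, 5.10, 0.755 and 3.50 in OVA_Rg3, and rose by 1.90 with control 2 inside the OVA_Rg3 range. It was the single call among 15 glycolysis genes, did not pass the filter without the 3 libraries, and 1 of the other 14 was then lower. Chac1, a glutathione-degrading enzyme of the unfolded protein response, rose by 1.08 and Il1a, interleukin 1 alpha, by 0.88. Egfl7, an endothelial secreted protein, rose by 1.26 and is 1 of the 8 called genes of the endothelial list described above. Of 14 heat shock genes Cryab, a small chaperone, rose by 0.83 and Hspa4l fell by 0.78. Without the 3 libraries none of the heat shock genes was higher and 1 was lower, and of the 9 proinflammatory genes, with Il1a the single call, none was higher and 1 was lower. Hba-a1, an alpha globin with a near-identical copy between which reads may be split, rose by 1.17 as the single call among 8 erythroid genes, of which 4 were higher without the 3 libraries. Chrm2, a muscarinic receptor, fell by 0.77, with OVA_Rg3 1 inside the control range. No single library ended the call of Stmn1. The limma adjusted p passed 0.05 with 1 library fewer for Slpi (without control 1, 2 or 4 or OVA_Rg3 2, 3 or 5, up to 0.0842), Cxcl17 and Mmp15 (without control 1, 2, 3 or 4 or OVA_Rg3 1, 2 or 5, up to 0.115 and 0.0981), Cd55 (without control 3 or 4, up to 0.0567), Hdc (without control 1, 3 or 4 or OVA_Rg3 2 or 5, up to 0.0853), Pfkfb3 and Hspa4l (without any of 10 libraries, up to 0.113 and 0.119), Chac1 (without control 1, 3, 4 or 5 or OVA_Rg3 2 or 5, up to 0.0839), Il1a (without any of 9 libraries, up to 0.116), Egfl7 (without control 3 or 4 or OVA_Rg3 5, up to 0.0605), Cryab (without any of 8 libraries, up to 0.103), Hba-a1 (without control 1, 4 or 5 or OVA_Rg3 2, 3 or 5, up to 0.0833) and Chrm2 (without any of 14 libraries, up to 0.118). The fit without the 3 libraries ended the calls of Slpi, Mmp15, Il1a and Cryab, the values as deposited ended those of Slpi, Il1a, Egfl7, Cryab and Hba-a1, quantile normalization ended those of Hspa4l and Hba-a1 and a pseudocount of 0.1 ended those of Cxcl17, Hdc, Mmp15, Pfkfb3, Il1a, Cryab, Hspa4l and Chrm2.

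Against OVA, the 5 genes of smallest p were Acta2 and Atp6v0d2, described above, Mfsd6, Rac3 and Gm9843, none of them called. Mfsd6, a membrane transporter family member, was 3.67, 4.17, 4.96, 4.95 and 4.55 in control, 0.375, 0.414, 0.420, 0.844 and 0.681 in OVA and 3.15, 2.79, 2.33, 4.17 and 1.42 in OVA_Rg3, all above OVA, with a change of 1.25 against OVA (limma adjusted p = 0.0824) and -0.57 against control (limma adjusted p = 0.0687). Rac3, a small GTPase, was 22.3, 16.5, 19.2, 19.8 and 16.9 in control, 5.00, 7.98, 2.43, 5.73 and 4.13 in OVA and 14.4, 13.4, 14.3, 10.03 and 10.5 in OVA_Rg3, between the other groups without overlap. Gm9843, a numbered gene model, had -1.19 against OVA. In lists without a call, the members of smallest p against control were B2m, Bst2, Cd79a, Etv5, Gzma, Krt15, Krt19, Ltf, Ly6c2, Ndufb5, Per3, Psma4, Sgk1, Tubb1 and Zap70, with limma adjusted p from 0.0608 to 0.467, and the chemokine gene Ccl24 was not called either (0.58, limma adjusted p = 0.314).

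The 10 largest rises and 10 largest falls among called and separated genes held several with no list. Gimap4, a GTPase of lymphocytes (ENSMUSG00000054435.16, chromosome 6, 48684549 to 48692060), was 8.04, 7.39, 6.11, 7.32 and 25.3 in control and 33.2, 31.6, 32.5, 49.0 and 76.5 in OVA_Rg3, and rose by 2.05 ± 0.39 (SE, limma adjusted p = 0.00943). Krt80, a keratin (ENSMUSG00000037185.8, chromosome 15, 101349571 to 101370125), was 4.05, 4.54, 3.16, 5.05 and 4.14 in control, 16.7, 13.3, 2.65, 15.2 and 17.6 in OVA and 15.8, 21.2, 16.5, 20.5 and 18.6 in OVA_Rg3 and rose by 1.91 ± 0.35 (SE, limma adjusted p = 0.00755). Rprml rose by 2.04 and Schip1 by 2.10, the latter with control 1 at 2.60 and the other controls under 0.1. Among the falls, Lhb, the beta subunit of luteinising hormone, was 17.5, 17.0, 19.0, 15.1 and 11.03 in control and 0, 2.23, 6.32, 4.53 and 0.342 in OVA_Rg3 and fell by 2.57 ± 0.54 (SE, limma adjusted p = 0.0139). Itih2, a heavy chain of the inter-alpha-trypsin inhibitor, was 7.81, 7.13, 6.46, 7.11 and 3.72 in control and 0, 0.118, 0.675, 1.72 and 0.446 in OVA_Rg3, and fell by 2.29 ± 0.30 (SE, limma adjusted p = 0.00178). Prob1 fell by 2.49 and Riiad1 by 2.28. Whichever library was left out, the calls of Gimap4, Krt80, Rprml, Lhb and Itih2 were kept. Single libraries decided the calls of Schip1 (without control 3 or 4, up to 0.0567), Prob1 (without control 3, up to 0.0528) and Riiad1 (without any of 11 libraries, up to 0.120), given with the limma adjusted p. Removing the 3 libraries ended the call of Riiad1 and a pseudocount of 0.1 ended those of Lhb, Prob1 and Riiad1. None of the genes in the plot of largest changes was called by limma between OVA_Rg3 and OVA, which does not show that these groups are alike.

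**Figure D5:**
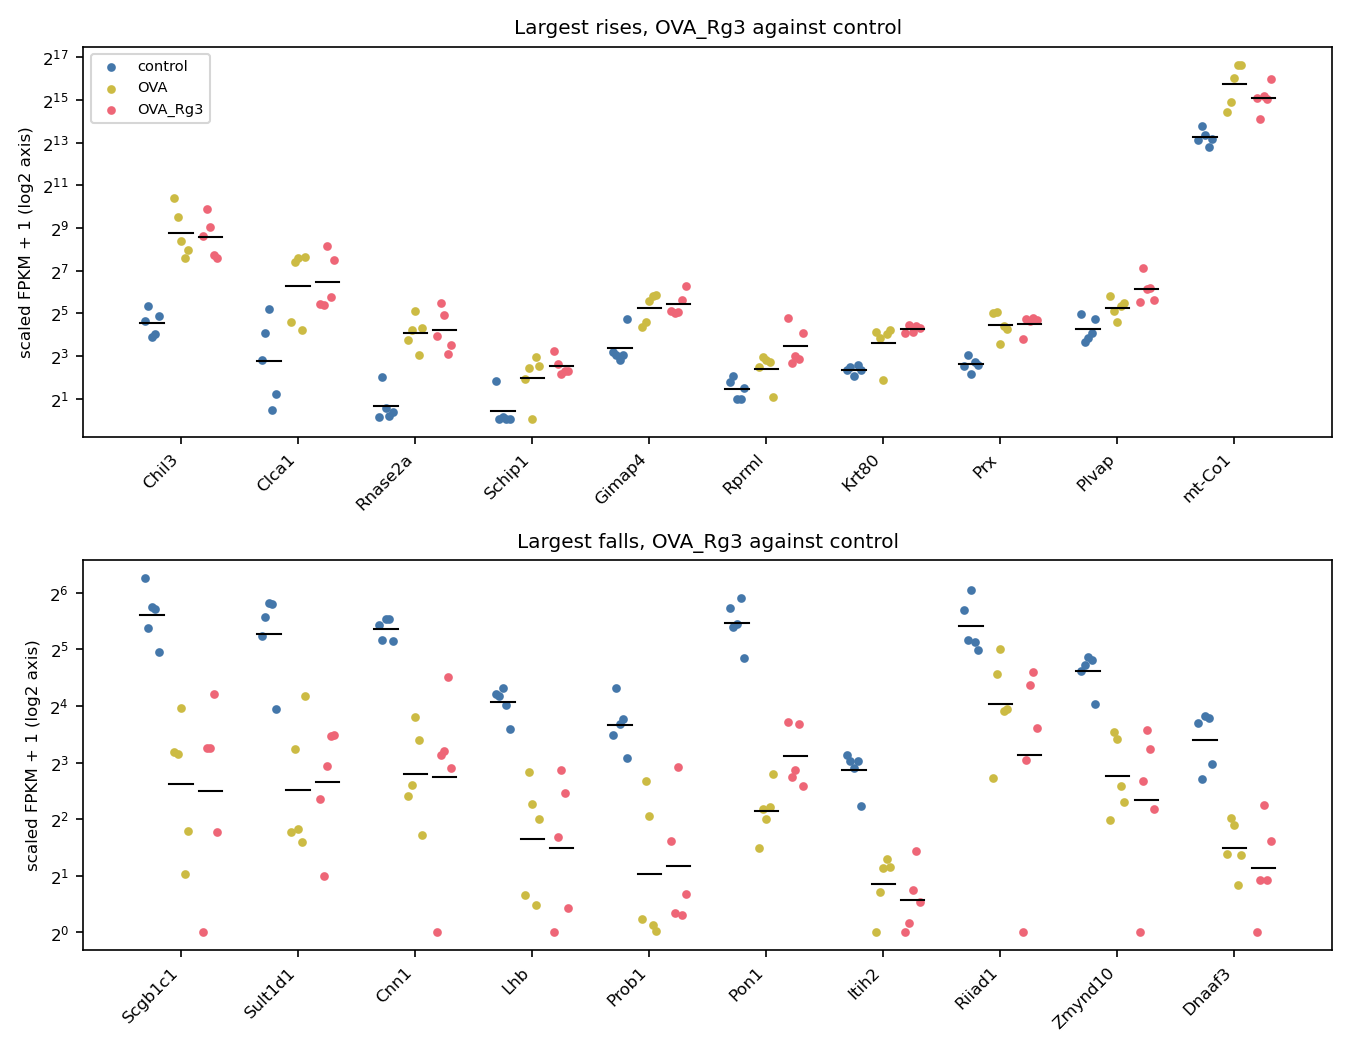
Scaled FPKM + 1 on a log2 axis for the 10 largest rises and 10 largest falls in OVA_Rg3 against control among called genes whose libraries do not overlap. Points are libraries of control, OVA and OVA_Rg3, and black bars the mean on the log scale. OVA_Rg3 1, the shallowest library, is at 0 for 7 of the 10 falls.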

How the data were processed

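Lung RNA of 5 control, 5 OVA and 5 OVA_Rg3 mice was sequenced after Trizol extraction, oligo(dT) selection and TruSeq library preparation, per the labels' protocols, which call the replicates biological. Trimmomatic, featureCounts and the GRCm39 (mm39) build appear in the submitters' processing notes, and the aligner is not given in the sources used here. The authors deposited 1 table of 14766 genes, whose values were read here as FPKM. The header names no unit, so that FPKM was inferred from the values, and whether they are TPM over a larger gene set could not be settled. Gene IDs and coordinates are those of the table, and 12988 genes have the same versioned ID and coordinates in GENCODE M21, a GRCm38 annotation. Promoter sequences are from RefSeq GRCm38.p6.

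Values were scaled by median ratios, and the 12137 genes at 1 or more in at least 5 libraries were tested on log2(value + 1) with limma 3.58.1 (R 4.3.3) with trend and robust estimation, 1 mean per group over all 15 libraries and Benjamini-Hochberg adjustment. The fit was tested on simulated data. Tables were built in pandas 2.3.3 and numpy 2.4.6 under Python 3.11.15, and plots in matplotlib 3.10.9. Rows with the same symbol were kept apart, and library columns were matched to samples by name. The comparison, the 62 gene lists (56 of cells and pathways and 6 of other organs) and the tests were chosen with earlier results of these data known. Named genes are the 10 largest rises and 10 largest falls among called genes whose groups do not overlap, up to 2 called members of smallest p per list (or 1 member where none is called), 16 genes of allergic inflammation, of which 9 passed the filter, and the 5 genes of smallest p between OVA_Rg3 and OVA. 1 gene that the rule names is not reported here. A further 45 list members in the text were chosen after their values were seen. Alternatives were other scalings, filters and pseudocounts, array weights, a replicate block, a minimum change, a fit of only the 2 groups and leaving out libraries. Implied depths assume FPKM of whole reads, and floors of 3 reads cover counting error only. Replicate numbers did not pair the samples (see the closing section for the values).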

Additional observations from a re-analysis of the deposited data

Results flagged for a closer look

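In 292 groups of 5 libraries, each a named gene in control or in OVA_Rg3, 21 libraries stood apart from the other 4 of their group by Dixon's test at the 95% level, where chance gives about 1 in 20 groups. Values are scaled FPKM, and the reasons were not tested.

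Control 2 was the library that stood apart most often, for 8 genes. It was also the shallowest control, where 3 reads on a gene of 1 kb make a deposited value of 3.61. Its values for Mmp12, Rnase2a, Pfkfb3, Chac1 and Tubb1 lay below that level. Control 2 was high for the macrophage genes Arg1 (6.22 against 0.230 to 0.592 in the other controls), Mmp12 (3.14 against 0.299 to 0.590) and for Rnase2a (3.08 against 0.110 to 0.463). It was also high for Rgs5 (4.19 against 0.614 to 0.869), Pfkfb3 (3.14 against 0.0864 to 0.168), Chac1 (1.15 against 0.331 to 0.454) and Ndufb5 (19.6 against 11.7 to 13.1), and the platelet tubulin Tubb1 was listed at 0 there against 0.790 to 1.19. Control 5 was high for Gimap4 (25.3 against 6.11 to 8.04), Col1a1 (30.9 against 24.9 to 26.4) and Eng (17.8 against 10.9 to 11.8) and low for Itih2 (3.72 against 6.46 to 7.81). Control 1 was high for Schip1 (2.60 against 0.0267 to 0.0973).

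OVA_Rg3 1, the shallowest library, was low for Egfl7 (28.6 against 50.7 to 63.5 in the other OVA_Rg3 libraries) and Prx (12.8 against 23.7 to 26.3), had 0 for Tekt1 (8.31 to 20.1 in the others), and was high for Rgs5 (24.4 against 3.38 to 5.84). OVA_Rg3 2 was high for the endothelial receptor Tek (37.6 against 12.6 to 17.2) and low for the club cell secretoglobin Scgb1a1 (13782 against 29219 to 38890). OVA_Rg3 3 was low for Cryab (26.8 against 41.5 to 44.6), and OVA_Rg3 5 was the only OVA_Rg3 library above 0 for Gsta1, at 1.40.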

How the results depend on the processing

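Against control, 1081 genes were called (365 higher, 716 lower). The total was 2016 with the values as deposited (94 higher, 1922 lower), 557 with a pseudocount of 0.1 (275 higher, 282 lower), 3236 with array weights (1189 higher, 2047 lower), 449 among 2921 genes with a mean of at least 10, a filter chosen after seeing the data (225 higher, 224 lower), and 0 against a minimum log2 change of 1 (0 higher, 0 lower). It was 1187 with quantile normalization, 973 with no filter, 795 with a minimum of 5, 905 with only the 2 groups, 1085 without trend and robust estimation and 1107 without the 3 libraries. Leaving out 1 library gave 224 to 1315 in all, 111 to 532 higher and 113 to 791 lower. Against OVA, 0 genes were called (1045 at an unadjusted p under 0.05), 1 with a pseudocount of 0.1, 2 with array weights, 4 with a mean of at least 10, 1 without the 3 libraries, and 0 to 1 with 1 library left out. Of the 79 called genes that the naming rule gave, 34 kept their calls in all 15 fits with 1 library left out. Siglech kept its call in the 10 fits that tested it, which held all the controls through which it passed the filter. The other settings ended 16 calls as deposited, 5 with quantile normalization, 7 with no filter, 20 with a pseudocount of 0.1 and 11 with only the 2 groups. They ended 4 with a replicate block, 12 of 77 without the 3 libraries and all 79 against a minimum change. No called gene changed direction. Of genes not called, Gm9843 (-0.06) turned to 0.048 with array weights and 0.18 without the 3 libraries, with a range of -0.19 to 0.078 when 1 library was left out, and Muc5b (-0.34) turned to 0.21 with array weights. Same-numbered control and OVA_Rg3 libraries had correlations of their deviations of -0.30, -0.54, 0.39, 0.12 and -0.09, so that the numbers do not pair the samples, and only control 3 correlated best with its own number. A replicate block gave 1145 calls against control (363 higher, 782 lower) and 0 against OVA. The causes of these shifts were not tested. Depth limits the low genes most, in OVA_Rg3 1 above all.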
